A study of Saccharomyces cerevisiae with 6 samples.

Results

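The phosphate regulon of baker's yeast is described here through 10 genes of the deposited table, chosen by name: PHO84, PHO89, PHO5, PHO8, PHO4, PHO81, SPL2, VTC1, VTC3 and VTC4. All 10 were found, among 6603 genes in the table. Wine strains of Saccharomyces cerevisiae fermented MS300, a synthetic medium that imitates white grape must, and cells were taken when 6 g/l of CO2 had been produced. With 25 mg/l of SO2, the antimicrobial preservative of winemaking, 4 strains were measured: the vineyard strain R008 and the enological (commercial wine) strains EC1118, VL3 and AWRI796. Cultures with 0 mg/l of SO2 were measured for VL3 and AWRI796 only, and such cultures of R008 and EC1118 were not analysed here. Each of the 6 cultures gave 1 RNA-seq library, so no group has a replicate. Levels are RPKM (read numbers corrected for the length of the gene and the size of the library) divided by 1 scaling factor per library, called scaled RPKM. Changes are differences of log2(scaled RPKM + 1), which understate the change of genes with low levels.

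The regulon lets yeast take up and store phosphate. When phosphate is short, the inhibitor Pho81 restrains the cyclin-dependent kinase Pho80-Pho85, and the transcription factor Pho4 then stays in the nucleus and switches on its targets. When phosphate is plentiful the kinase keeps Pho4 inactive and in the cytoplasm. The targets include high-affinity phosphate transporters, secreted acid phosphatases and the vacuolar transporter chaperone (VTC) complex, which makes polyphosphate, the vacuolar phosphate store. Pho4 binds the core letters CACGTG, and more weakly CACGTT.

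Those letters were read in the reference genome (S288C, R64), to show where they lie before these genes. The genes were chosen by name for this regulon, so a high share among them is no independent result. Sequences of the 4 wine strains were not analysed here. In the 500 bases before the start codon, CACGTG or CACGTT, on either strand, was present in 9 of 10 members, and in 21.1% of 5728 genes. CACGTG alone was present in 8 of 10 members, against 6.28% of all genes, and CACGTT in 6 of 10, against 16.1%. Of the 10, only PHO4 held neither in this window or in 1000 bases, where 36.1% of all genes held 1 or both. CACGTG reads alike on both strands and was counted once, and CACGTT on the opposite strand reads AACGTG. The 2 motifs did not overlap each other in these promoters. A match is a string of letters and does not show that Pho4 was bound in these cultures.

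The longest stretches are shown for PHO84 and PHO5, a transporter and a phosphatase among the members. Both are on the minus strand and are written 5′ to 3′ towards the gene, with every motif match in capitals. The PHO84 stretch runs from base -600 to base -301 before the start codon (chr13:26101-26400) and the PHO5 stretch from -400 to -201 (chr2:431152-431351).
PHO84: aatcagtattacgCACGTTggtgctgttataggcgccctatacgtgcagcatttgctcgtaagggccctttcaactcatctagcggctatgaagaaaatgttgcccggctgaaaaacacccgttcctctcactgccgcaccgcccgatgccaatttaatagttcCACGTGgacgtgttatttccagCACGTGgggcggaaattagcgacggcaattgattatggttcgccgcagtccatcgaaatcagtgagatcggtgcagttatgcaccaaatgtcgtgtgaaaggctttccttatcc
PHO5: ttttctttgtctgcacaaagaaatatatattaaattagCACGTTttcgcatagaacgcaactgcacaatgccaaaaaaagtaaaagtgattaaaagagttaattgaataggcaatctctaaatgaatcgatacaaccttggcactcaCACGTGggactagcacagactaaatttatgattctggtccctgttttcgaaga

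For the other members 1 stretch of 30 bases around a motif is shown each, so that the flanks can be compared. They lie at chr2:798828-798857 (PHO89, minus strand), chr4:1420767-1420796 (PHO8, minus strand, beyond the 500 bases), chr7:958537-958566 (PHO81, minus strand), chr8:375230-375259 (SPL2, minus strand), chr5:302637-302666 (VTC1, plus strand), chr16:517346-517375 (VTC3, minus strand) and chr10:413507-413536 (VTC4, minus strand).
PHO89: atgacaatgcagCACGTGggagacaaatag
PHO8: tctacgtcgggcCACGTGcagcgatcactt
PHO81: caggtgttatggCACGTGcgaataagggca
SPL2: aaatgatgtacgCACGTGggcgaaagttca
VTC1: aatagatattagCACGTGtctcggagagaa
VTC3: tgtgcgagggccCACGTGgcttaatacaac
VTC4: attattcatccgCACGTGgctgcaCACGTG

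**Figure D1:**
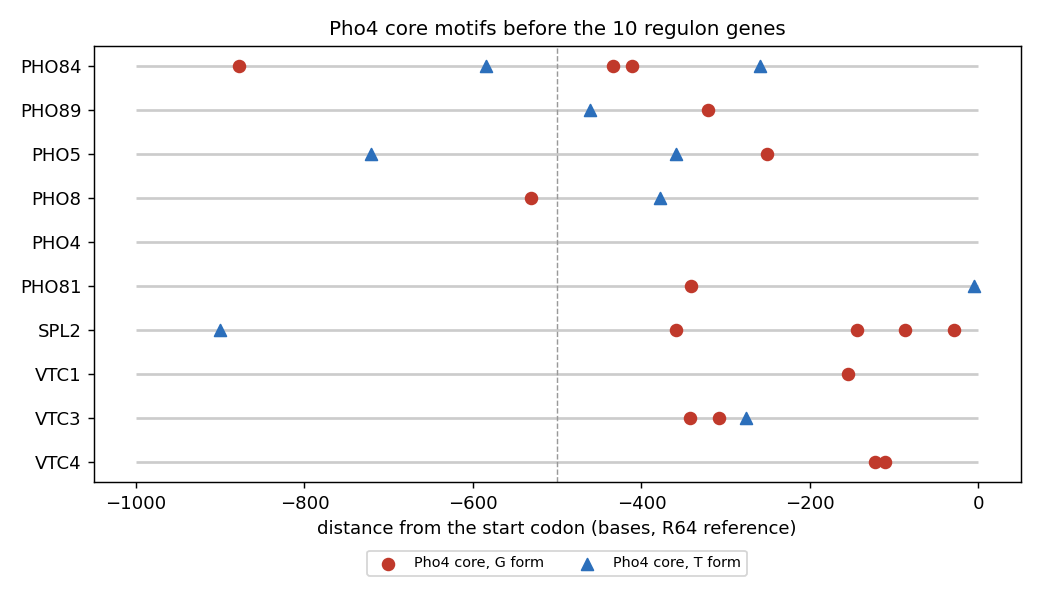
Positions of the Pho4 core letters before the 10 genes, in bases from the start codon in the R64 reference; red points stand for the form ending in G, blue triangles for the form ending in T, and the dashed line marks 500 bases. SPL2 and PHO84 held 5 matches each within 1000 bases, and PHO4 held none.

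The members ranged from nearly silent to well expressed, and differed in how much they varied between libraries. The members' median log2 level, over the 8 whose mean deposited RPKM was at least 5, lay between 5.06 in AWRI796 without SO2 and 6.14 in EC1118 with SO2. Over 5009 genes with a value in all 6 libraries and a mean of at least 5 RPKM, the highest and lowest library differed by a median of 0.93 on the log2 scale. PHO84 differed by 4.47, PHO8 by 3.35 and PHO5 by 2.19, more than in 99.3%, 98.5% and 94.9% of these genes. PHO4 differed by 0.48, more than in 8.5% of them, and VTC1, PHO81, VTC3 and VTC4 by 0.7, 0.76, 0.89 and 1.13.

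**Figure D2:**
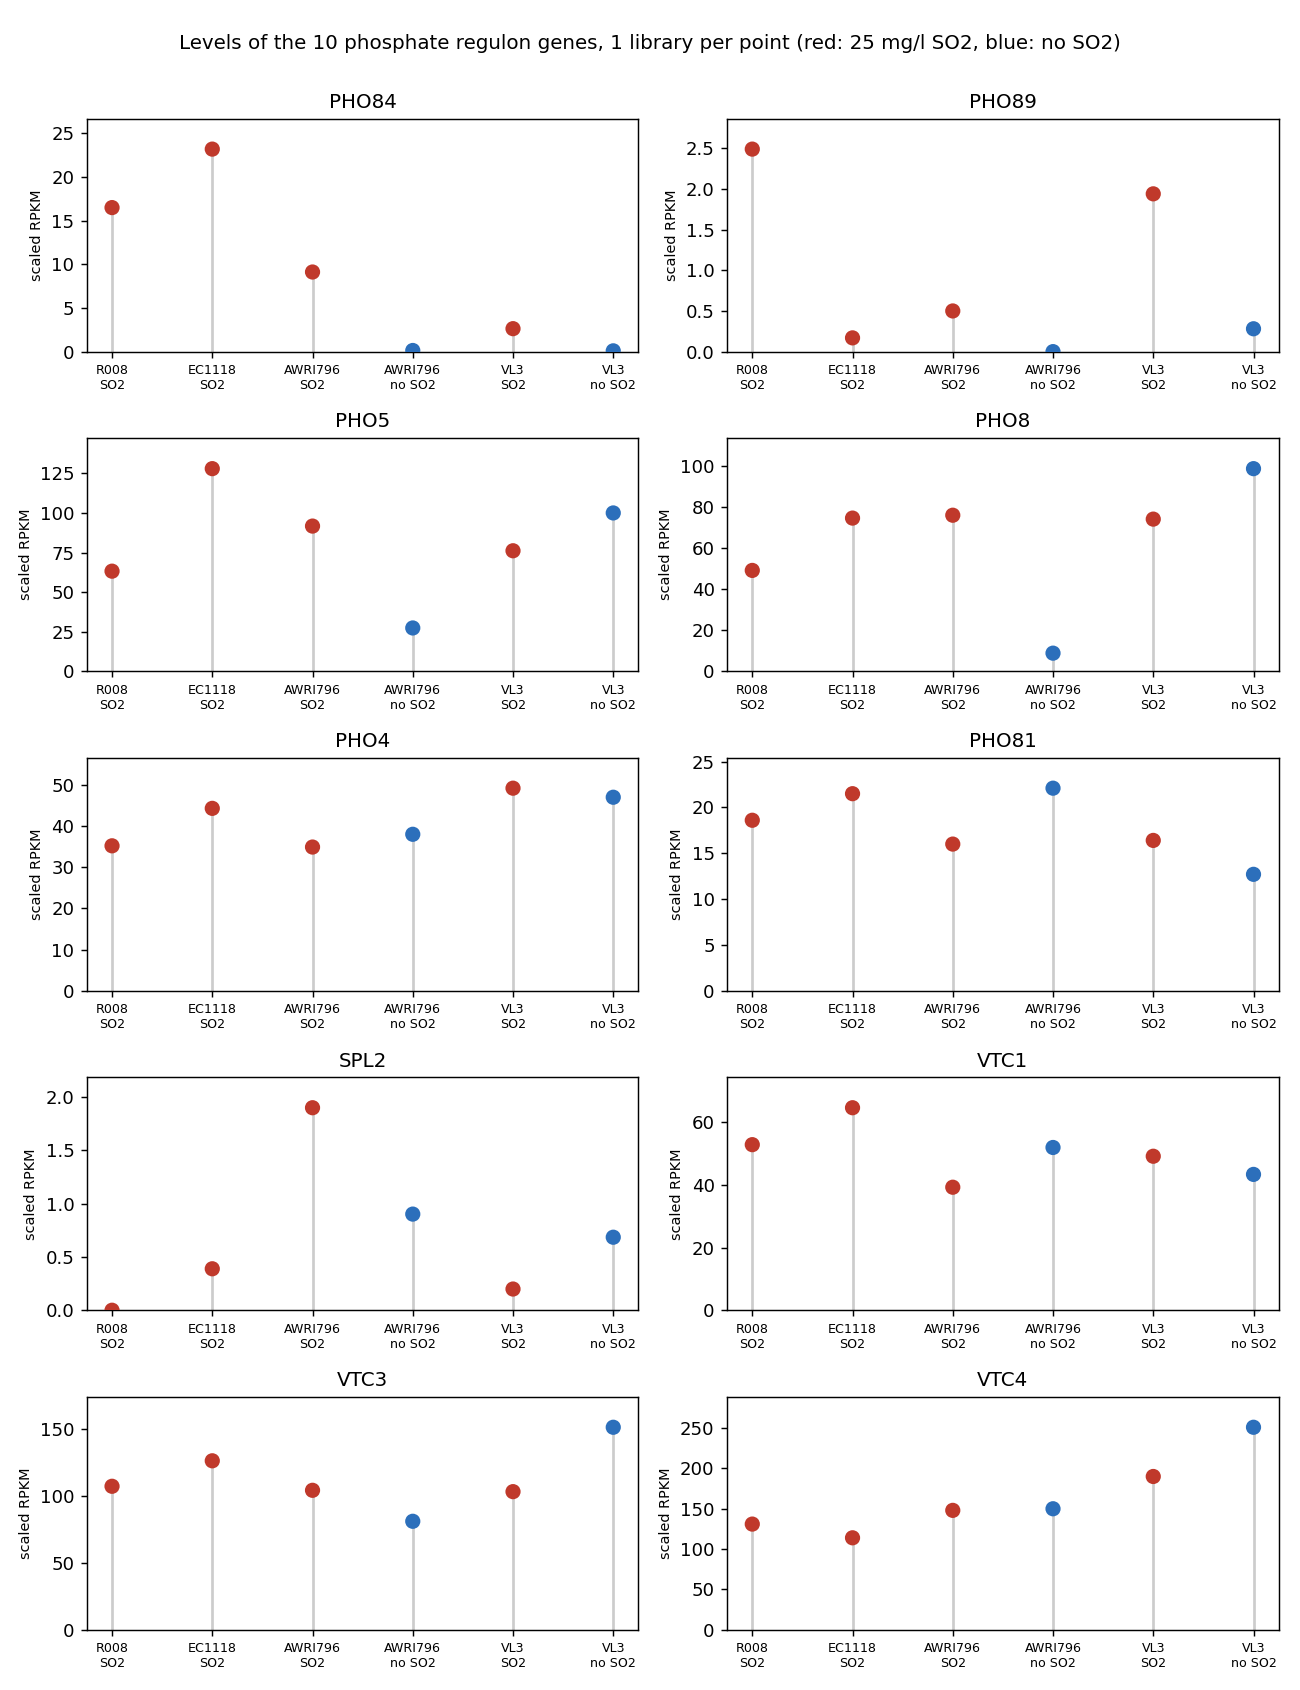
Scaled RPKM of each of the 10 genes in the 6 libraries, 1 point per library, with an axis from 0 for each gene; red points are cultures with 25 mg/l of SO2 and blue points cultures without. PHO84 lay at 2.63 or more in every red library and at 0.13 or less in both blue ones, while PHO8 and PHO5 were lowest in AWRI796 without SO2.

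PHO84 (YML123C, chromosome 13, 24037 to 25800, R64) encodes the high-affinity transporter that brings phosphate in with protons. It stood at 9.12 scaled RPKM in AWRI796 with SO2 and at 0.13 in AWRI796 without. In VL3 it stood at 2.63 scaled RPKM with SO2 and at 0.0898 without. R008 and EC1118, both with SO2, reached 16.5 and 23.2 scaled RPKM. All 4 libraries with SO2 were therefore above both without. This held for 1 of the 8 members, PHO84, near the share of 9.16% of 5009 genes. PHO84 is among the 8 only through its libraries with SO2. None of the 8 was lower in all libraries with SO2 than in both without, against 10.3% of genes. Without SO2 the transporter was near the bottom of the transcriptome, above 8.4% of genes in AWRI796 and 7.4% in VL3. With SO2 it was above 32% in R008, 38.9% in EC1118, 24.4% in AWRI796 and 15.9% in VL3.

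The PHO84 change with SO2 was 3.16 on the log2 scale in AWRI796, the 15th highest of 5158 genes, and 1.74 in VL3, the 23rd highest of 5150. Over both strains, the limma fit gave a log2 change of 2.45 ± 0.69 (SE, unadjusted p = 0.0085), which did not pass adjustment over all genes (limma adjusted p = 0.606). It was the 6th highest of 5092 changes, and both strains showed its direction. These sizes rest on the low levels without SO2. At a pseudocount of 0.1 the changes were 5.32 in AWRI796 and 3.85 in VL3, and at a pseudocount of 5 they were 1.46 in AWRI796 and 0.58 in VL3, so that VL3 then missed 1.5-fold. PHO84 reached the minimum of 5 RPKM only through libraries with SO2, so its place among the genes tested is not independent of its change. The RPKM hold no counts, so how many reads lie behind the values without SO2 is unknown.

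PHO89 and SPL2 stayed near 0 in every library and fell below the minimum of 5 RPKM. PHO89 (YBR296C, chromosome 2, 796798 to 798522) encodes the other high-affinity phosphate transporter, which is coupled to sodium and works at alkaline pH. It stood at 0.5 scaled RPKM in AWRI796 with SO2 and was listed at 0 without. In VL3 it stood at 1.94 with SO2 and at 0.281 without. R008 had 2.49 scaled RPKM and EC1118 0.169, so the libraries with SO2 overlapped those without. SPL2 (YHR136C, chromosome 8, 374654 to 375100) encodes a small protein that shuts down low-affinity phosphate uptake when the regulon is on. It stood at 1.9 scaled RPKM in AWRI796 with SO2 against 0.902 without, and at 0.199 in VL3 with SO2 against 0.685 without. It was listed at 0 in R008 and stood at 0.389 in EC1118. At values this near 0, with unknown read numbers, whether SPL2 followed PHO84 across the libraries cannot be told.

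PHO5 and PHO8, the phosphatases among the members, were set apart by a single library. PHO8 (YDR481C, chromosome 4, 1418550 to 1420250) encodes the alkaline phosphatase of the vacuole. It stood at 76 scaled RPKM in AWRI796 with SO2 and at 8.77 without, a log2 change of 2.98, or 7.89-fold, the 16th highest of 5158. In VL3 it stood at 74.1 with SO2 and 98.7 without, a log2 change of -0.41. R008 had 49.1 scaled RPKM and EC1118 74.6. AWRI796 without SO2 was thus far below the other 5 libraries, which lay between 49.1 and 98.7.

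PHO5 (YBR093C, chromosome 2, 429548 to 430951) encodes the secreted acid phosphatase that phosphate represses. It stood at 91.7 scaled RPKM in AWRI796 with SO2 and at 27.3 without, a log2 change of 1.71, or 3.27-fold. In VL3 it stood at 76.1 with SO2 and 100 without, a log2 change of -0.39. R008 had 63.2 scaled RPKM and EC1118 128. Its tandem neighbour PHO3, an acid phosphatase gene that thiamine represses, moved in the same way in AWRI796, at 418 scaled RPKM with SO2 and 72.7 without. PHO3 was above PHO5 in every library, by 2.02 times in EC1118 up to 4.56 times in AWRI796 with SO2. The coding sequences of PHO3 and PHO5 are 86.6% identical over 99.9% of their length. Whether reads shared between the 2 genes link their values was not tested. Over both strains the log2 changes were 1.28 ± 0.68 for PHO8 (limma adjusted p = 0.746) and 0.66 ± 0.48 for PHO5 (limma adjusted p = 0.828), positive in 1 of the 2 strains each.

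AWRI796 without SO2 was the lowest library for 3 of 8 members, PHO5, PHO8 and VTC3, and the highest for PHO81. It was the lowest for 20.8% and the highest for 20.6% of 5009 genes. The medians of other gene groups, though not all of their genes, also set the AWRI796 pair apart. The median log2 level of 132 cytosolic ribosomal protein genes was 9 in AWRI796 with SO2 and 7.36 without, against 7.61 to 8.36 in the other 4 libraries. That of 13 stationary phase markers, genes that growing cells switch on as they stop dividing, was 6.47 in AWRI796 with SO2 and 6.6 without, against 5.39 to 6.11 elsewhere. These markers went both ways in AWRI796. With SO2, 3 of 13 were higher by 1.5-fold or more and 6 lower by as much, against 17.6% and 15.4% of 5158 genes. Among the higher ones, GRE1 stood at 241 scaled RPKM with SO2, the highest of the 6 libraries, and at 60.2 without. Among the lower ones, the heat shock gene HSP26 stood at 996 scaled RPKM with SO2, the lowest of the 6 libraries, and at 6372 without, the highest. What these differences contribute to the values of PHO5 and PHO8 was not tested.

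The regulators varied little. PHO4 (YFR034C, chromosome 6, 225020 to 225958), the transcription factor itself, stood at 34.9 scaled RPKM in AWRI796 with SO2 and 38 without, and at 49.2 in VL3 with SO2 and 47 without. R008 had 35.2 and EC1118 44.3. The groups overlapped, and the largest of the 6 values was 1.41 times the smallest. PHO81 (YGR233C, chromosome 7, 954674 to 958210), the kinase inhibitor and itself a Pho4 target, stood at 16 scaled RPKM in AWRI796 with SO2 and 22.1 without. In VL3 it stood at 16.4 with SO2 and 12.7 without, and R008 had 18.6 and EC1118 21.5. Its log2 changes were -0.44 in AWRI796 and 0.35 in VL3, neither of which reached 1.5-fold. The cyclin gene PHO80, the kinase gene PHO85 and PHO2, which encodes the partner factor of Pho4, also stayed under 1.5-fold in both strains, with log2 changes between -0.45 and 0.11.

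The polyphosphate genes were well expressed and had SO2 changes under 1.5-fold wherever they had values, while VTC4 differed more between libraries than most genes. VTC4 (YJL012C, chromosome 10, 411234 to 413399) encodes the subunit of the complex that makes the polymer. It stood at 148 scaled RPKM in AWRI796 with SO2 and 150 without, at 190 in VL3 with SO2 and 251 without, at 131 in R008 and at 114 in EC1118. Both VL3 libraries were above those of the other 3 strains. VTC3 (YPL019C, chromosome 16, 514511 to 517018), a further subunit of the complex, stood at 104 scaled RPKM in AWRI796 with SO2 and 80.9 without, at 103 in VL3 with SO2 and 151 without, at 107 in R008 and at 126 in EC1118. VTC1 (YER072W, chromosome 5, 302806 to 303195), the smallest of the 3 subunits listed here, lay between 39.3 and 64.7 scaled RPKM in the 6 libraries, lowest in AWRI796 with SO2 and highest in EC1118. The libraries with and without SO2 overlapped for all 3 genes. The log2 changes with SO2 were highest for VTC3 in AWRI796, at 0.36, and lowest for the same gene in VL3, at -0.54. VTC2, VTC5 and the polyphosphatases PPN1, PPN2 and PPX1, which break the polymer down, were likewise under 1.5-fold wherever they had values. VTC5 had none in VL3.

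The members were also counted against all genes, without a test of the difference. In AWRI796, 3 of the 8 members with at least 5 RPKM had a level higher by 1.5-fold or more with SO2 and 0 were lower by as much, against 17.6% and 15.4% of 5158 genes. In VL3, 1 of 8 was at least 1.5-fold higher and 0 lower, against 10.7% and 9.86% of 5150 genes. Without the scaling factors, 930 of all genes were higher and 290 lower in VL3, in place of 553 and 508, and the member count was the same. The median log2 change of the members was 0.17 in AWRI796, against 0 for all genes, and -0.16 in VL3, against -0.01 for all genes. Over both strains 0 of 8 members passed limma's threshold, as did 0% of 5092 genes, while 1 member, PHO84, had an unadjusted p under 0.05, as did 7.36% of genes. Because PHO84 reached the minimum level through its high libraries, these counts are given as a description.

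**Figure D3:**
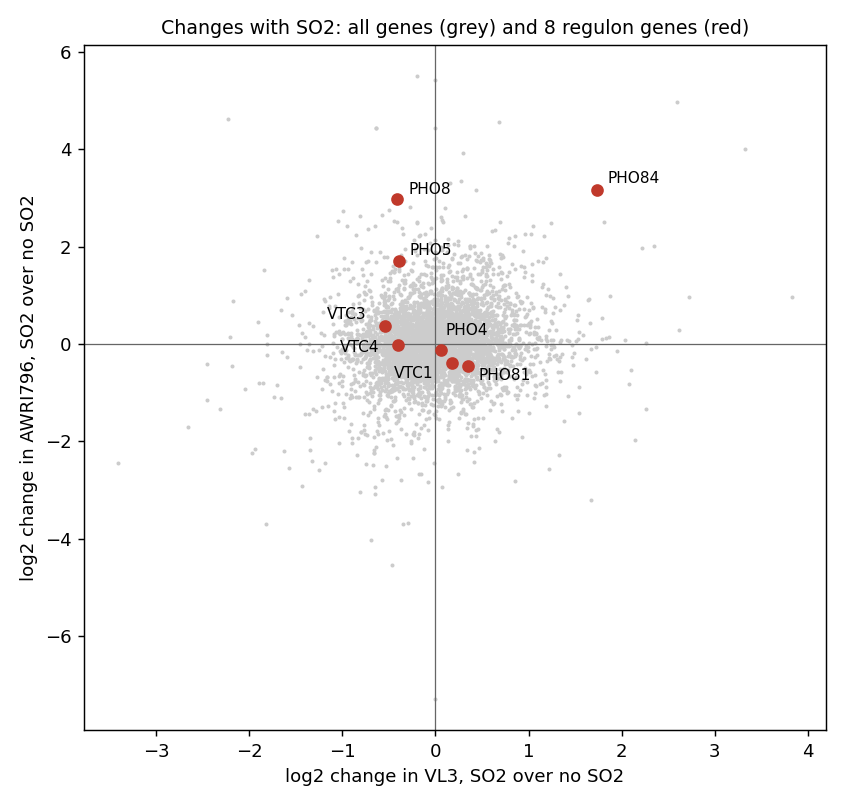
Log2 change with SO2 over no SO2 in VL3 (horizontal) and AWRI796 (vertical) for 5092 genes in grey and the 8 members tested in red. PHO84 is the only member far from 0 on both axes, PHO8 and PHO5 are high on the AWRI796 axis alone, and the other 5 lie within 0.54 of 0 on both.

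Of 30 other genes of phosphate uptake, phosphatases, signalling and polyphosphate, 28 had values above the minimum in AWRI796 and 27 in VL3. In AWRI796, 2 were at least 1.5-fold higher with SO2, PHO3 and PHM7, and 7 were at least 1.5-fold lower, GIT1, GDE1, PHO90, DDP1, PHM8, PHO11 and PHO12. In VL3, GIT1 and GDE1 were lower by that much, and 0 of the 27 were higher. Among all genes in AWRI796, 17.6% of 5158 were higher and 15.4% were lower by 1.5-fold or more. For VL3 these shares were 10.7% and 9.86% of 5150 genes. PHO11 and PHO12 had the same values as each other in both strains, so they are not separate results in the counts of pathway genes. Over both strains, 0 of 27 passed limma's threshold, as did 0% of 5092 genes. An unadjusted limma p under 0.05 was found for 2 of the 27, near the share of 7.36% among all genes.

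Those 2, GIT1 and GDE1, were lower with SO2 in both strains. GIT1 encodes a permease for glycerophosphoinositol and related phosphodiesters, a source of phosphate that is not inorganic. It stood at 7.07 scaled RPKM in AWRI796 with SO2 and 13.1 without, and at 6.09 in VL3 with SO2 and 25.4 without. R008 had 15.8 and EC1118 11.7, so its groups overlapped. GDE1 encodes a glycerophosphodiesterase that frees choline from glycerophosphocholine. It stood at 25.1 scaled RPKM in AWRI796 with SO2 and 46.4 without, at 31.1 in VL3 with SO2 and 55.3 without, at 30.5 in R008 and at 25.7 in EC1118. Of the other pathway genes, 26 had a value in all 6 libraries and a mean of at least 5 RPKM. For 3 of these 26, GDE1, PHM8 and PLC1, all 4 libraries with SO2 were below both without, against 10.3% of 5009 genes. None of the 26 was above, against 9.16%. PHO91, a phosphate carrier gene under that minimum, was above, at 4.58 to 5.94 scaled RPKM with SO2. Without SO2 it stood at 4.11 in VL3 and 2.75 in AWRI796. The limma log2 changes over both strains were -1.35 ± 0.4 for GIT1 and -0.84 ± 0.28 for GDE1, each with an adjusted p = 0.606.

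The remaining pathway genes past 1.5-fold were so in AWRI796 alone. PHO90, a low-affinity phosphate transporter gene, stood at 31.2 scaled RPKM with SO2 and 60.1 without in that strain, whereas PHO87, its relative, stood at 80.6 and 80.2. PHM8, a phosphatase gene that responds to phosphate shortage, stood at 254 scaled RPKM with SO2 and 576 without, the highest of the 6 libraries. DDP1, whose product removes phosphate from inositol pyrophosphates, stood at 6.9 scaled RPKM with SO2 and 12.8 without. PHM7, a poorly known gene that responds to phosphate, stood at 22.7 scaled RPKM with SO2 and 13.4 without. PHO11 and PHO12 had the same values, 36.6 scaled RPKM with SO2 and 62.4 without. Their coding sequences are 99.7% identical, so the reads of the 2 genes cannot be told apart. Whether AWRI796 and VL3 differ in these changes was not tested, since each strain has 1 pair of libraries.

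**Figure D4:**
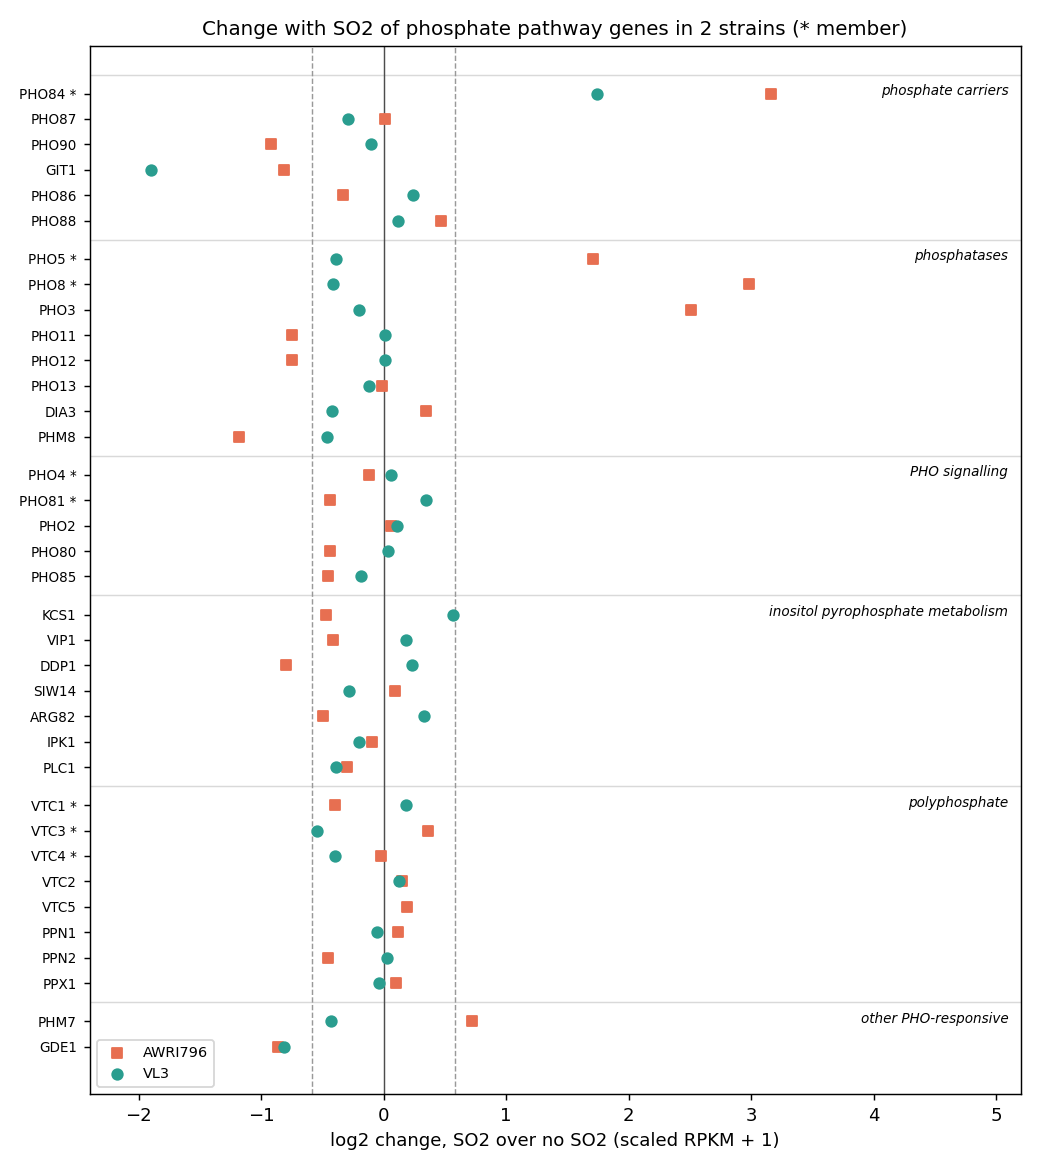
Log2 change with SO2 over no SO2 of the pathway genes with a mean of at least 5 RPKM, grouped by role, in AWRI796 (squares) and VL3 (circles); an asterisk marks a member and the dashed lines mark 1.5-fold. Among the carriers PHO84 lies to the right in both strains and GIT1 to the left in both, while the genes of signalling, inositol pyrophosphates and polyphosphate lie between the dashed lines, but for DDP1 in AWRI796.

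Which genes have a value went by strain, with 6292 in each AWRI796 library, 6299 in each VL3 library, 6342 in R008 and 6422 in EC1118, so gene models or mapping may also enter a comparison of strains. Between strains, 0 of 8 members passed limma's threshold for AWRI796 against VL3 over both SO2 levels, against 0.334% of 5092 genes, and 1 had an unadjusted p under 0.05, against 12% of all genes. That member was PHO8, with a log2 difference of -1.66 ± 0.68 (SE, unadjusted p = 0.0434, limma adjusted p = 0.397). The levels differed in the cultures without SO2, at 8.77 scaled RPKM in AWRI796 and 98.7 in VL3, whereas with SO2 AWRI796 had 76 and VL3 74.1. For PHO5 the difference was -0.78 ± 0.48 (limma adjusted p = 0.529) and for PHO84 0.77 ± 0.69 (limma adjusted p = 0.665).

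R008 was set against the 3 enological strains with SO2, the only condition in which it had a library. None of the 8 members passed limma's threshold, against 0.18% of 5009 genes, and 0 of the 8 had an unadjusted p under 0.05, against 3.15% of all genes. R008 had the lowest level of the 4 strains for PHO5 and PHO8, 2 of 8 members, against 21.2% of 5009 genes. PHO5 stood at 63.2 scaled RPKM in R008, against 91.7 in AWRI796, 76.1 in VL3 and 128 in EC1118, a log2 difference of -0.6 ± 0.39 (SE, limma adjusted p = 1). PHO8 stood at 49.1 scaled RPKM in R008, against 74.1, 74.6 and 76 in VL3, EC1118 and AWRI796, a log2 difference of -0.6 ± 0.33 (limma adjusted p = 1). PHO84 was higher in R008 than in VL3 and AWRI796 but lower than in EC1118, at a log2 difference of 0.86 ± 0.81 (limma adjusted p = 1). Leaving out 1 enological strain at a time gave 0.16 without VL3, 0.9 without AWRI796 and 1.53 without EC1118. With 1 library per strain, no spread is known by which to say which neighbours in the order EC1118, R008, AWRI796 and VL3 differ for PHO84.

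No other member tested lay near PHO84 in its profile. Profiles were compared by the root mean square distance between log2 levels, each centred on the gene's mean over the 6 libraries. The nearest member, PHO5, lay at 1.56 and ranked 573 among all genes, while the median of all genes lay at 1.82. This distance depends on the size of changes as well as their shape. A flat profile would lie at 1.78 from PHO84, so members with small ranges fall near that value whatever their shape. The 4 nearest genes outside the pathway lists were YMR244W at 0.62, NPR1 at 0.81, APA1 at 0.83 and YDL241W at 0.86. YMR244W, of unknown function, stood at 34.1 scaled RPKM in AWRI796 with SO2 and 0.121 without, at 10.2 in VL3 with SO2 and 0.853 without, at 24.6 in R008 and at 48.6 in EC1118. NPR1 encodes a kinase that controls nitrogen permeases. It stood at 23.2 scaled RPKM in AWRI796 with SO2 and 6.86 without, at 12 in VL3 with SO2 and 7.86 without, at 36.6 in R008 and at 45.9 in EC1118. APA1 encodes a phosphorylase of diadenosine tetraphosphate. It stood at 81.5 scaled RPKM in AWRI796 with SO2 and 21 without, at 42 in VL3 with SO2 and 21.5 without, at 74.3 in R008 and at 147 in EC1118. All 3 genes had their highest level in EC1118. All 4 of their libraries with SO2 were above both without, as were those of 9.16% of 5009 genes. These genes were chosen for their nearness to PHO84, which has both traits, so this is no separate result. YMR244W and YDL241W, like PHO84, reached the minimum of 5 RPKM only through libraries with SO2. Without SO2, YDL241W stood at 3.58 scaled RPKM in AWRI796 and 4.02 in VL3. Among the members the closest pair was PHO81 and VTC1, at 0.17, each with a range below the median of all genes.

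**Figure D5:**
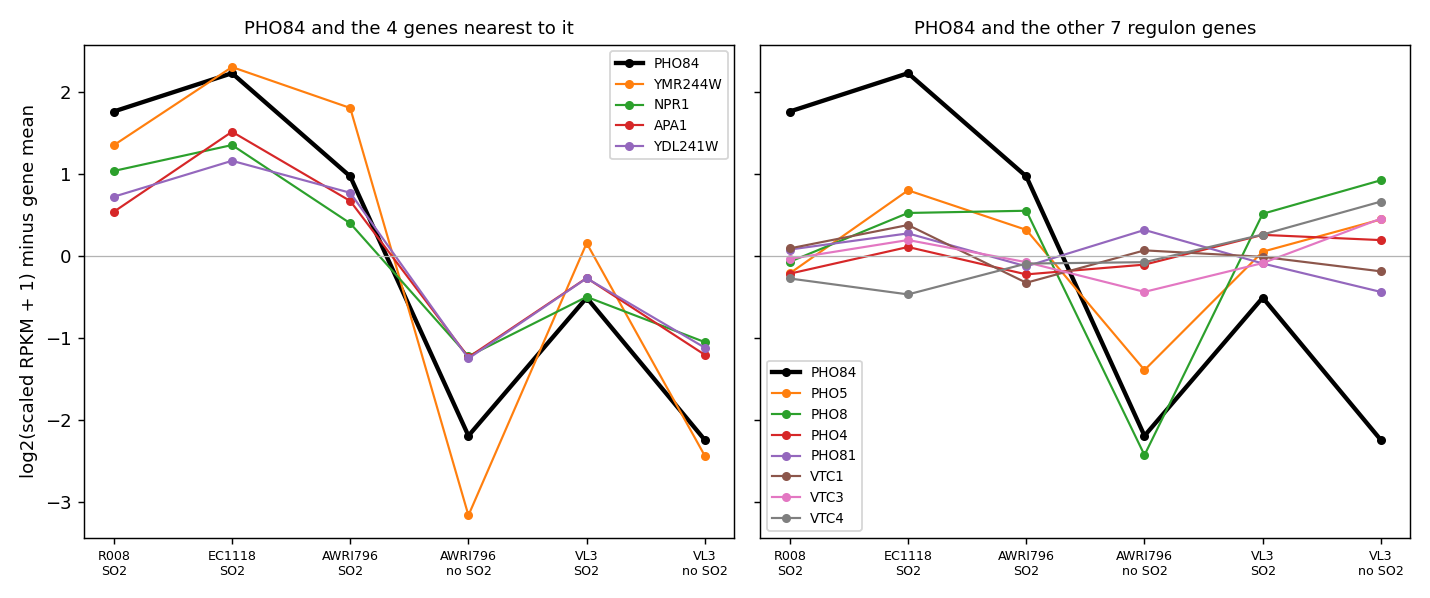
Log2(scaled RPKM + 1) in the 6 libraries, centred on each gene's mean, for PHO84 (black) with the 4 genes nearest to it on the left and with the other 7 members tested on the right. The 4 nearest genes, chosen for their likeness to PHO84, follow it down in both cultures without SO2. On the right PHO5 and PHO8 drop with PHO84 in AWRI796 without SO2 but not in VL3 without SO2.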

How the data were processed

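The authors' deposited table holds RPKM per gene and library, per the file headers, which write RKPM. The libraries were made with the SOLiD 4 whole transcriptome kit from RNA depleted of rRNA, per the labels' protocols. Aligner, counting and strand use: not given in the sources used here. Depth is unknown, since low values did not fall on whole reads (at most 30.3% came within 0.1 of one, against 20% by chance). Library sums of RPKM lay between 778099 and 1070965.

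The table has 6611 rows. Rows with a repeated systematic name (8) were dropped, and 2 genes that share a line with another were recovered. RPKM were divided by median-of-ratios factors from 4993 genes (0.88 to 1.153). Genes with a mean of at least 5 RPKM were tested, which leaves out PHO89 and SPL2. Coordinates of all members equal those of R64. VTC5 and PPN2 were named from RefSeq.

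Within a strain, changes were called at 1.5-fold with no test. limma 3.58.1 in R 4.3.3 (eBayes with trend, two-sided, Benjamini-Hochberg at 0.05) was fitted to the 4 VL3 and AWRI796 libraries with strain and SO2 as terms (1 residual degree of freedom, 6.44 prior), and to the 4 libraries with SO2 for R008 (2 residual, 8.54 prior), whose lone library is assumed to vary like the others. Strains stand in for replicates, and an SE says little about its own gene. The fits were tested on simulated data. Copies were sought with BLAST+ 2.17.0. Members, lists and tests were chosen with earlier results of these data known. Named were all members, pathway genes past 1.5-fold, and the 5 genes nearest to PHO84, of which 1 is not reported here. Counts of libraries that did not overlap were added after values were seen.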

Additional observations from a re-analysis of the deposited data

Results flagged for a closer look

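PHO5 and PHO8 moved in opposite directions in the 2 strains measured with and without SO2. The log2 change of PHO5 was 1.71 in AWRI796 and -0.39 in VL3, and that of PHO8 was 2.98 in AWRI796 and -0.41 in VL3. The decreases in VL3 were under 1.5-fold, and the difference between the strains was not tested, since each rests on 1 pair of libraries.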

How the results depend on the processing

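Of 400 values recomputed under an alternative, 369 kept their direction and their side of the threshold or their size, and no member gained or lost a call by limma. A count was taken as kept if it changed by no more than 1.5 times. Many of those kept were counts of 0 that stayed 0, so the 369 is no measure of how firm the results are. In VL3 the members at least 1.5-fold higher numbered 0 at a pseudocount of 5 (405 of all genes), 0 at a minimum of 20 RPKM (397 of all genes, PHO84 not tested) and 2 without a filter (669 of all genes), when PHO89 was added. In AWRI796 they numbered 5 without a filter (1076 of all genes), with PHO89 and SPL2, both near 0. Without scaling factors the median of all genes moved by up to 0.24, to 0.24 for AWRI796 against VL3, -0.21 for R008 and 0.15 in VL3, where 930 genes were higher and 290 lower. For AWRI796 against VL3, limma called 5 genes higher with quantile normalization, 5 lower at a minimum of 20 RPKM, and 0 in either direction without a filter. For R008, 1 gene was called higher without scaling, 0 at a pseudocount of 0.1, 0 at a minimum of 20 RPKM, and 26 higher and 0 lower without a filter. Between 1 (without EC1118) and 6 (without VL3 or AWRI796) were called higher with 1 enological strain left out. The motif count was 4 members in the window of 250 bases before to 50 after the start codon, against 11.9% of all genes. Reversed, all at small values with no call, were PHO4 over both strains (0.02 unscaled), VTC1 for AWRI796 against VL3 (0.22 unscaled) and, for R008, PHO81 (-0.16) and VTC1 (-0.15) unscaled. With 1 strain left out, R008 differences changed sign for VTC3 (-0.09 to 0.05), VTC4 (-0.36 to 0.01), PHO81 (-0.01 to 0.19) and VTC1 (-0.09 to 0.26). The cause was not tested. The fit over VL3 and AWRI796 already compares with and without SO2 within strain. Without strain as a term, the PHO84 change was 2.45 (limma adjusted p = 1, in place of 0.606), and limma called 0 genes as before. No paired analysis by replicate number was possible because each group has 1 library.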
